A study of Canis lupus familiaris with 4 samples.

Results

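The genes described here make, move and sense cholesterol, or build and activate fatty acids, and their signals were read on 4 canine glioblastoma arrays. The list held 36 genes by symbol, among 15115 genes on the array that had a probe set with a single gene symbol. Of these 36 genes, 35 had such a probe set and IDI1, an isomerase of the isoprenoid route, had none and was not analysed here. The brightest probe set by the mean of the 4 arrays stood for its gene, and 26 members had at least 1 further probe set as a check. The members fall into sterol synthesis enzymes (18 listed), sterol sensing (5), sterol uptake, transport and efflux (4), fatty acid synthesis, elongation and desaturation (7) and fatty acid activation (2).

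RNA came from 4 lines grown in DMEM with fetal bovine serum, and each line was hybridized to 1 array. J3T-2A is the J3T-2 line overexpressing annexin A2 (ANXA2), and J3T-2 is the parental subclone that the study describes as low in ANXA2. J3T-1shA is the J3T-1 line with ANXA2 knocked down, and J3T-1 is the parental subclone that the study describes as high in ANXA2. The sample labels give line names only. J3T-1 and J3T-2 were both derived from the canine J3T glioblastoma cells, every condition is a single line, and whether the parental lines carried a control vector is not given in the sources used here.

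Cells make cholesterol from acetyl-CoA. The mevalonate route yields isoprenoid units, which are joined to squalene, closed to lanosterol and trimmed in many steps to cholesterol. Transcription of these enzymes is driven mainly by SREBP-2 and that of fatty acid enzymes mainly by SREBP-1. Both are held in the endoplasmic reticulum by SCAP and INSIG proteins while sterol is plentiful and are released for cleavage when it falls. Glioblastoma cells are known for a high demand for cholesterol and lipids, much of it met by uptake.

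The values are MAS 5.0 signals, intensities on a linear scale that the authors scaled to one trimmed mean per array, which was 495.8 to 496.0 in the deposited columns. Only genes whose brighter array reached a signal of 250 were counted as measured in a comparison, a limit passed by 35.2% to 35.9% of all probe sets on each array. Each line has a single array and hence no replicate, so no ratio carries a test, an SD or a p-value, and precision is limited by that number. As the only available gauge of error, the log2 ratios of the 2 brightest probe sets of the same gene had differences whose SD was 0.29 in J3T-2A over J3T-2 (3716 genes), 0.37 in J3T-1shA over J3T-1 (3760 genes) and 0.37 in J3T-1 over J3T-2 (3759 genes). A 1.5-fold difference, 0.58 on the log2 scale, is therefore 2 times this SD in the first comparison and less than 2 times in the others. This spread is within 1 RNA sample and does not cover differences between cultures.

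The ANXA2 signal did not check the labels. Its brightest probe set read 28775 for J3T-2A against 30103 for J3T-2, and 30093 for J3T-1shA against 28656 for J3T-1. Its second read 35651 for J3T-2A against 30311 for J3T-2, and 25725 for J3T-1shA against 24128 for J3T-1, so the array labelled as knocked down was not lower by either. Directions below are therefore between arrays as labelled. Of 8 glial and glioma markers with a probe set, SLC1A3, VIM and SOX2 reached 250 on all 4 arrays, while GFAP (8.2 to 21.6), S100B and AQP4, which mark astrocytes, were far below it. NES reached 250 only in J3T-1shA (345.9, against 150.2 in J3T-1), and FABP7 stayed under it on all 4 arrays (78.6 to 138.9). No hepatocyte or adipocyte marker reached 250, and of 5 macrophage markers only C1QA did. Of 4 endothelial markers only PECAM1 reached 250, and only in J3T-2, with 161.0 in J3T-2A and 773.2 in J3T-2, and the 4 summed to 324.6 in J3T-2A and 1013 in J3T-2, and to 219.5 in J3T-1shA and 191.9 in J3T-1. CDH5, VWF and CLDN5 stayed under 250 on every array. Fibroblast and pericyte markers summed over 5 genes to 12836 in J3T-2A and 5212 in J3T-2, and to 31665 in J3T-1shA and 3060.3 in J3T-1, but did not move as a set. COL1A1, which carries the first difference, had 11899 in J3T-2A and 3799 in J3T-2, while DCN ran the other way with 794.8 in J3T-2A and 1292 in J3T-2. In J3T-1shA over J3T-1, COL1A1, DCN and ACTA2 were all higher (log2 ratios 3.06, 1.59 and 4.60), and PDGFRB and RGS5 were under 250 on all 4 arrays. The part of these markers in the results below was not tested, and in bulk RNA fewer cells of a type and less RNA per cell cannot be told apart.

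As a set, though not for every gene, sterol synthesis enzymes had their lowest median level in J3T-2A. Of 15 measured enzymes, 14 had a lower signal in J3T-2A than in J3T-2, with a median log2 ratio of -0.52, against a median of 0.00 and 50.6% below 0 among all 6860 measured genes. The J3T-2A array gave the lowest of the 4 signals for 12 of the 15 enzymes, and it did so for 18.2% of the 7241 genes measured on any array. J3T-2 gave the highest signal for 8 of the 15 and the lowest for 0, where it was highest for 26.2% and lowest for 27.7% of those genes. The shift was moderate: no enzyme of this route passed 2-fold in J3T-2A over J3T-2, where 3.79% of all genes did. Over 1.5-fold lower were 4 of the 15, where 7.03% of all genes were. Between J3T-1shA and J3T-1 the same enzymes had no common direction, with 8 of 14 lower and a median log2 ratio of -0.09, which was 0.08 when all probe sets of a gene were combined by their median. All 6944 measured genes had a median of -0.03 there, with 52.9% below 0.

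**Figure D1:**
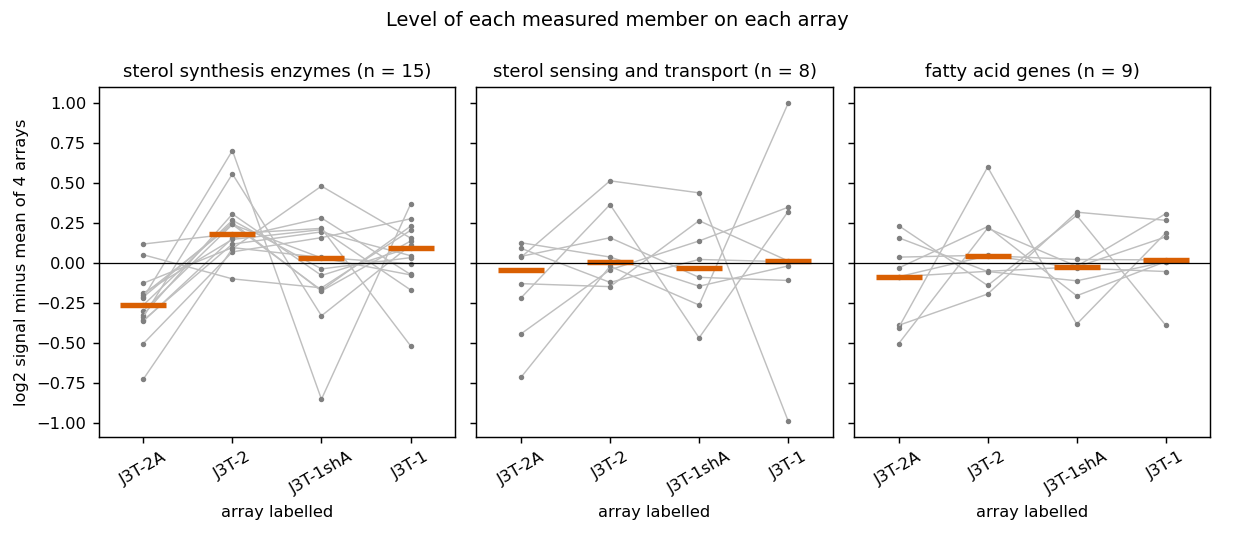
Level of each measured member on each array (y axis, log2 signal minus the mean of its 4 arrays), with 1 grey line per gene and an orange bar at the median of the genes, for sterol synthesis enzymes, sterol sensing and transport genes, and fatty acid genes. The median of the 15 sterol synthesis enzymes is lowest on the array labelled J3T-2A (-0.26) and highest on that labelled J3T-2 (0.18), while the medians of the other panels, which pool roles, stay between -0.09 and 0.05.

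The first steps of the route were lower in J3T-2A as a set. Of the 6 precursor and mevalonate enzymes with a probe set, 5 were measured, and all 5 had their lowest signal on the array labelled J3T-2A. HMGCS1, which condenses acetyl-CoA with acetoacetyl-CoA to HMG-CoA, had 5340.0 in J3T-2A and 7764 in J3T-2, a log2 ratio of -0.54. It had 5840.0 in J3T-1shA and 7702 in J3T-1, so by this probe set both parental lines lay close together and both derived lines below them. Its other 2 probe sets gave -0.79 and -0.64 for J3T-2A over J3T-2, but -0.17 and 0.43 for J3T-1shA over J3T-1, so the second difference did not hold between probe sets. For J3T-1 over J3T-2 they gave -0.49 and -0.86, against -0.01 by the brightest, and by the dimmest J3T-1 was the lowest array. The closeness of the parental lines in HMGCS1 therefore rests on the brightest probe set.

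ACAT2, the thiolase that makes acetoacetyl-CoA, had 1306 in J3T-2A and 1815 in J3T-2, and 1914 in J3T-1shA and 1727 in J3T-1. PMVK, the kinase that adds the second phosphate to mevalonate, had 636.9 in J3T-2A and 984.8 in J3T-2, a log2 ratio of -0.63, and 755.1 in J3T-1shA and 851.6 in J3T-1. The PMVK difference depended on the probe set, since the others gave log2 ratios of 0.00 and -0.33 for J3T-2A over J3T-2. MVD, which decarboxylates the product to isopentenyl diphosphate, had 873.4 in J3T-2A and 1299 in J3T-2, and 1382 in J3T-1shA and 1499 in J3T-1. J3T-2A thus stood apart from 3 arrays of similar MVD signal. FDPS, which joins isoprenoid units to farnesyl diphosphate, had 3923 in J3T-2A and 4949 in J3T-2, and 5163 in J3T-1shA and 3978 in J3T-1. Here J3T-2A and J3T-1 shared the low level. MVK, mevalonate kinase, stayed under 250 on all 4 arrays (114.3 to 199.4), and no ratio was read from it.

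From squalene onward, 9 of 10 measured enzymes were lower in J3T-2A than in J3T-2, with a median log2 ratio of -0.49. FDFT1, squalene synthase, had 1874 in J3T-2A and 2584 in J3T-2, and 1923 in J3T-1shA and 2387 in J3T-1. SQLE, the squalene epoxidase that is a rate-controlling step of this branch, had 6552 in J3T-2A and 9456 in J3T-2, and 7661 in J3T-1shA and 8044 in J3T-1. All 3 SQLE probe sets gave nearly the same value for J3T-2A over J3T-2, with log2 ratios of -0.53, -0.59 and -0.60. CYP51A1, which removes a methyl group from lanosterol, had 5245 in J3T-2A and 9736 in J3T-2, a log2 ratio of -0.89, and 5270.0 in J3T-1shA and 7149 in J3T-1, a log2 ratio of -0.44. Both derived lines had the same low CYP51A1 signal, and the other probe sets were also lower in both, at -0.99 and -0.36 for J3T-2A over J3T-2 and -0.27 and -0.42 for J3T-1shA over J3T-1.

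TM7SF2, a sterol reductase, had 519.6 in J3T-2A and 914.1 in J3T-2, and 1198 in J3T-1shA and 956.7 in J3T-1. Its log2 ratio for J3T-2A over J3T-2 was -0.81, and -1.39 by its other probe set (265.4 and 695.7), so that it was lower by both and by how much depended on the probe set. MSMO1, which oxidizes the methyl groups of the ring, was the exception of the list, at 6251 in J3T-2A and 5633 in J3T-2, and 5418 in J3T-1shA and 6947 in J3T-1. Its log2 ratio for J3T-2A over J3T-2 was 0.15, and 0.25 by its second probe set. NSDHL, which acts in the same demethylation, reached 250 only in J3T-2 (254.5), with 218.2 in J3T-2A.

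HSD17B7, the reductase that completes this demethylation, had 861.0 in J3T-2A and 900.2 in J3T-2, and 921.4 in J3T-1shA and 554.5 in J3T-1. The J3T-1 array alone was low, so the log2 ratio was 0.73 for J3T-1shA over J3T-1 and -0.06 for J3T-2A over J3T-2. SC5D, a sterol desaturase, had 721.3 in J3T-2A and 977.0 in J3T-2, and 845.2 in J3T-1shA and 785.5 in J3T-1. DHCR7, which carries out the last reduction of one branch to cholesterol, had 252.7 in J3T-2A and 361.7 in J3T-2, and 394.9 in J3T-1shA and 309.3 in J3T-1. For both genes J3T-2A was the lowest array. LSS, which closes squalene epoxide to lanosterol, was under 250 throughout (44.3 to 124.4), and no ratio was read from it.

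EBP, the isomerase that shifts a double bond in the sterol ring, had the largest difference of the measured sterol enzymes in both ANXA2 comparisons by the brightest probe sets. Its signal was 1498 in J3T-2A and 2832 in J3T-2, and 965.7 in J3T-1shA and 2244 in J3T-1. Both derived lines lay below both parental lines, with a log2 ratio of -0.92 between J3T-2A and J3T-2 and of -1.22 between J3T-1shA and J3T-1. The second probe set gave -0.87 and -0.99. Relative to its own parental line, EBP was thus 1.89-fold lower in J3T-2A and 2.32-fold lower in J3T-1shA, by the arrays as labelled.

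Over all probe sets of these enzymes that reached 250 on any array, 27 of 29 were lower in J3T-2A than in J3T-2, and both that were not belong to MSMO1. The J3T-2A array held the lowest signal of 21 of the 29 probe sets, against 17.2% of all 13055 probe sets with 1 symbol at that signal. These 29 probe sets read 15 genes and are not independent of each other.

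**Figure D2:**
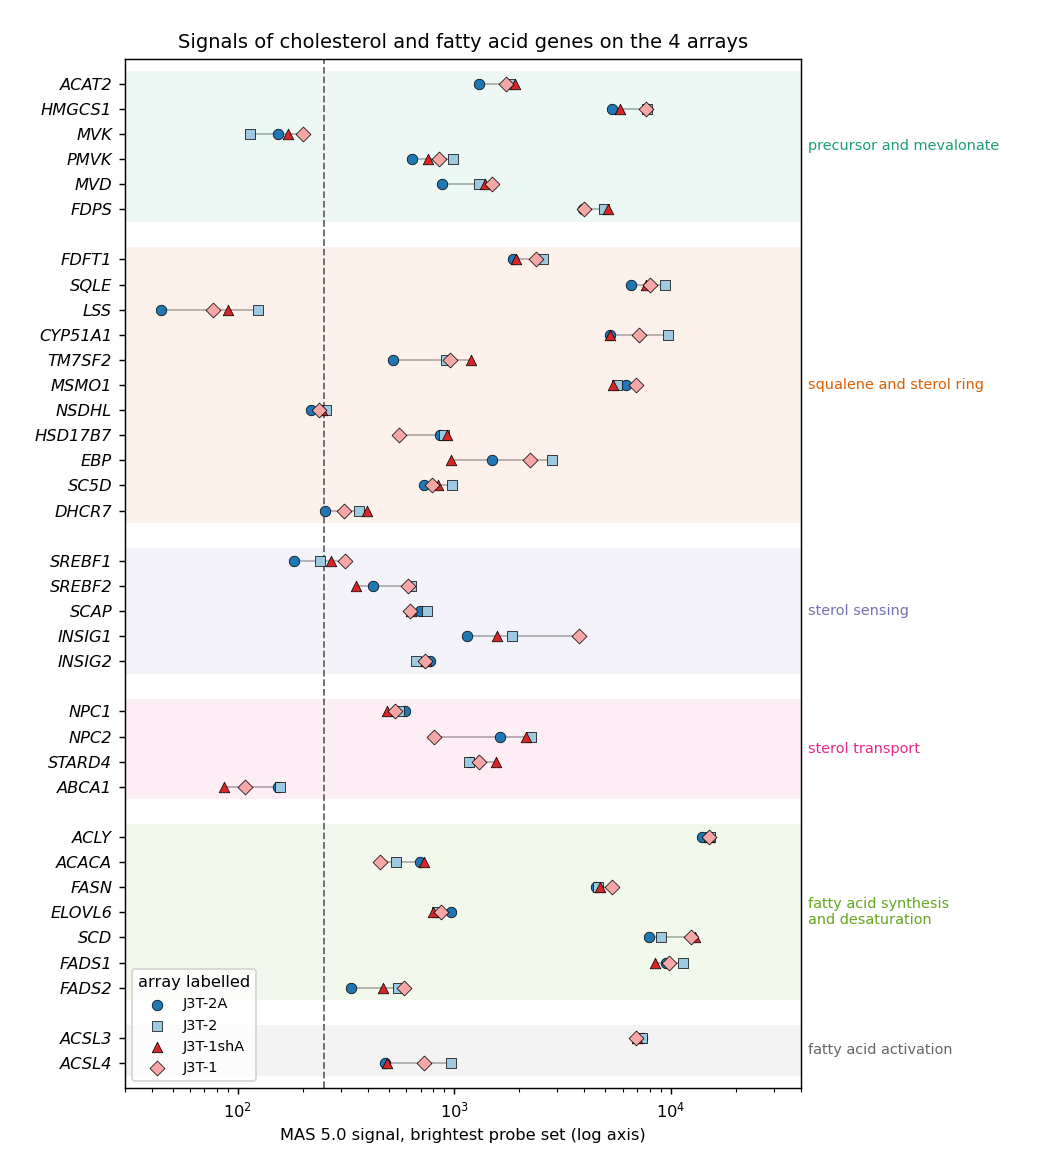
MAS 5.0 signal of the brightest probe set of each of the 35 members (x axis, log scale) on the 4 arrays, grouped by role, with the limit of 250 as a dashed line. Dark blue circles (J3T-2A) lie at the left end for most sterol synthesis enzymes, and EBP, INSIG1, NPC2 and ACSL4 spread over the widest range among members above the limit, together with TM7SF2.

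Among the sensing genes, INSIG1 spanned the widest range. The median level of the 5 genes, on the log2 scale about the mean of the 4 arrays, was -0.22 in J3T-2A and -0.02 in J3T-2, and -0.09 in J3T-1shA and 0.32 in J3T-1, a range near that of the sterol enzymes. The 4 measured in J3T-2A over J3T-2 had a median log2 ratio of -0.35, with 3 lower. INSIG1, which retains SCAP and is itself an SREBP target, had 1148 in J3T-2A and 1856 in J3T-2, a log2 ratio of -0.69, and 1569 in J3T-1shA and 3757 in J3T-1, a log2 ratio of -1.26. It was highest on the array labelled J3T-1, 2.02-fold above J3T-2. The second probe set kept the directions, but with -0.61 for each ANXA2 comparison and 0.22 for J3T-1 over J3T-2, so the size of the J3T-1 excess rests on the brightest probe set. INSIG2, its relative, had 774.7 in J3T-2A and 668.4 in J3T-2, and 738.0 in J3T-1shA and 730.8 in J3T-1.

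SREBF2, which encodes SREBP-2, had 419.4 in J3T-2A and 628.2 in J3T-2, and 352.9 in J3T-1shA and 609.6 in J3T-1. The parental lines again lay above both derived lines, with a log2 ratio of -0.58 between J3T-2A and J3T-2 and of -0.79 between J3T-1shA and J3T-1. Its 2 further probe sets were under 250 on every array, so the SREBF2 difference has no second reading. SREBF1, which encodes SREBP-1, was dim, at 181.1 in J3T-2A and 238.9 in J3T-2, and 270.7 in J3T-1shA and 313.2 in J3T-1. SCAP, the escort protein of both, had 691.9 in J3T-2A and 750.1 in J3T-2, and 631.9 in J3T-1shA and 623.5 in J3T-1, which are nearly level.

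Of the transport genes, NPC2 alone passed 1.5-fold in any comparison by the brightest probe set. NPC2, a soluble protein that takes cholesterol out of lysosomes, had 1633 in J3T-2A and 2273 in J3T-2, and 2158 in J3T-1shA and 804.3 in J3T-1. It was lowest on the array labelled J3T-1, where it was 2.68-fold lower than in J3T-1shA. The second probe set showed the same, at 1986 in J3T-1shA and 873.4 in J3T-1, and at 1591 in J3T-2A and 2310 in J3T-2. Both lines that the study describes as ANXA2-high were thus below their ANXA2-low counterparts in NPC2. The log2 ratio was -0.48 between J3T-2A and J3T-2, which is under 1.5-fold, and 1.42 between J3T-1shA and J3T-1.

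NPC1, the membrane partner of NPC2, had 589.4 in J3T-2A and 554.0 in J3T-2, and 488.3 in J3T-1shA and 533.1 in J3T-1. Its second probe set was as flat. STARD4, a sterol carrier of the cytosol, had 1182 in J3T-2A and 1167 in J3T-2, and 1552 in J3T-1shA and 1304 in J3T-1, and its 3 further probe sets were also higher in J3T-1shA than in J3T-1 (log2 ratios of 0.12 to 0.57). ABCA1, the cholesterol exporter of the plasma membrane, was under 250 on all 4 arrays (86.2 to 157.0).

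**Figure D3:**
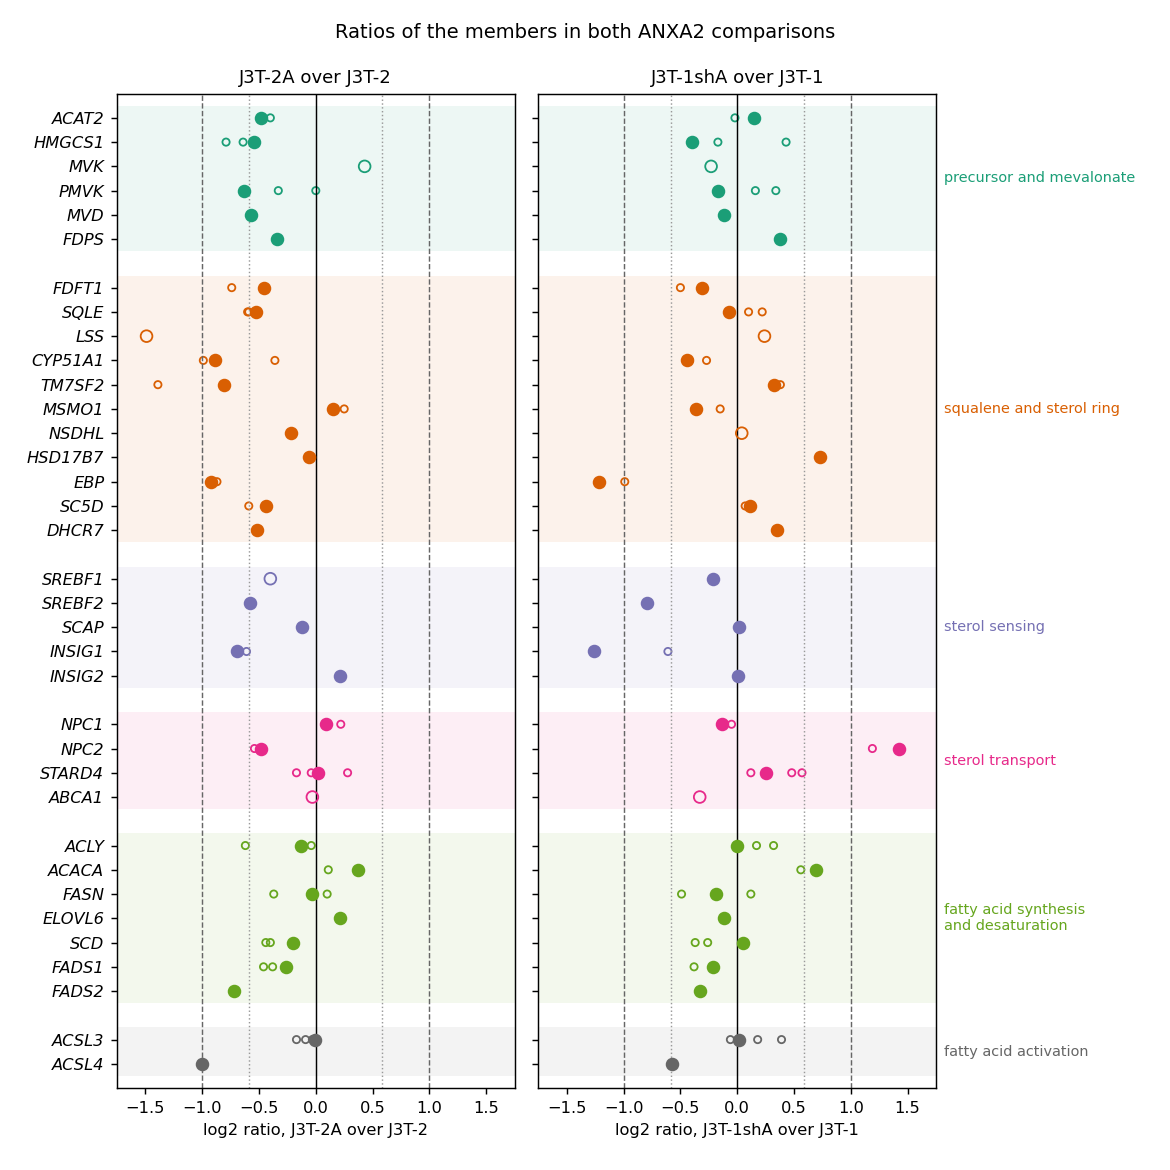
Log2 ratios of the members for J3T-2A over J3T-2 and J3T-1shA over J3T-1 (x axes), grouped by role, with large points for the brightest probe set (open where both arrays were under 250) and small open points for further probe sets at that signal. Dotted lines mark 1.5-fold and dashed lines 2-fold; sterol synthesis genes lie left of 0 in the first panel except MSMO1 and the dim MVK, and on both sides in the second.

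Fatty acid genes lay nearer to 0 than the sterol enzymes in J3T-2A over J3T-2, a difference that was not tested. This holds for the 7 genes of synthesis, elongation and desaturation (median -0.13), while ACSL3 and ACSL4 alone had a median level of -0.18 in J3T-2A and 0.32 in J3T-2, through ACSL4. Together the 9 genes had a median log2 ratio of -0.13 for J3T-2A over J3T-2 and of -0.12 for J3T-1shA over J3T-1. In direction they resembled the sterol enzymes, since 7 of the 9 were lower in J3T-2A than in J3T-2. The J3T-2A array held the lowest signal of 5 and the J3T-2 array of 0, against 18.2% and 27.7% of all measured genes. Over the alternatives of processing, the median of the 7 genes for J3T-2A over J3T-2 ran from -0.20 to -0.04. ACLY, which makes cytosolic acetyl-CoA for both routes, was the brightest member, with 13930.4 in J3T-2A and 15259 in J3T-2, and 15014 in J3T-1shA and 14984 in J3T-1. FASN, the fatty acid synthase, had 4526 in J3T-2A and 4634 in J3T-2, and 4722 in J3T-1shA and 5377 in J3T-1. Both were nearly level by these probe sets, but their further probe sets above 250 scattered in J3T-2A over J3T-2, from -0.62 to -0.04 for ACLY and from -0.37 to 0.10 for FASN.

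ACACA, which makes malonyl-CoA, had 695.9 in J3T-2A and 537.1 in J3T-2, and 727.2 in J3T-1shA and 452.0 in J3T-1, so both derived lines lay above both parental lines. Its second probe set showed a log2 ratio of 0.11 between J3T-2A and J3T-2 and of 0.56 between J3T-1shA and J3T-1, against 0.37 and 0.69 for the brightest. ELOVL6, an elongase of palmitate, had 966.0 in J3T-2A and 834.7 in J3T-2, and 801.8 in J3T-1shA and 870.4 in J3T-1.

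SCD, the desaturase that makes oleate, divided the lines by origin, with 7917 in J3T-2A and 9066 in J3T-2, and 12920 in J3T-1shA and 12471 in J3T-1. Both lines derived from J3T-1 were above both derived from J3T-2, and the log2 ratio was 0.46 for J3T-1 over J3T-2, and 0.28 and 0.71 by its other probe sets. FADS1 and FADS2, the desaturases of polyunsaturated fatty acids, were of unlike brightness. FADS1 had 9550 in J3T-2A and 11426 in J3T-2, and 8471 in J3T-1shA and 9823 in J3T-1, lower in each derived line by all 3 probe sets. FADS2 had 334.3 in J3T-2A and 551.2 in J3T-2, and 467.4 in J3T-1shA and 587.0 in J3T-1, with a log2 ratio of -0.72 between J3T-2A and J3T-2 and of -0.33 between J3T-1shA and J3T-1.

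ACSL4, which activates arachidonate and other polyunsaturated fatty acids, had 480.2 in J3T-2A and 962.4 in J3T-2, and 487.8 in J3T-1shA and 723.9 in J3T-1. Both derived lines had the same low signal, and the signal in J3T-2A was just past 2-fold lower than in J3T-2, by the only probe set of the gene. ACSL3, which activates fatty acids for lipid droplets, was the most even member by the brightest probe sets. It had 7350 in J3T-2A and 7413 in J3T-2, and 7010.1 in J3T-1shA and 6907 in J3T-1, a span of 1.07-fold. Its further probe sets spanned 1.26-fold to 1.5-fold, the widest of them under 250 on every array.

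Counted over the 31 members measured in J3T-2A over J3T-2, 1 passed 2-fold either way (ACSL4), where 3.79% of all measured genes did. None was over 1.5-fold higher, where 5.04% of all genes were, and 7 were over 1.5-fold lower (22.6%), where 7.03% of all genes were. These were PMVK, CYP51A1, TM7SF2, EBP, INSIG1, FADS2 and ACSL4. For J3T-1shA over J3T-1, 3 of 31 members passed 2-fold (EBP and INSIG1 lower, NPC2 higher), a share of 9.68% that is near the 8.06% of all genes. Over 1.5-fold higher were 3 members, HSD17B7, NPC2 and ACACA, where 11.1% of all genes were, and over 1.5-fold lower were 3, EBP, SREBF2 and INSIG1, where 10.9% of all genes were. The members as a whole therefore differed here about as often as other genes.

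**Figure D4:**
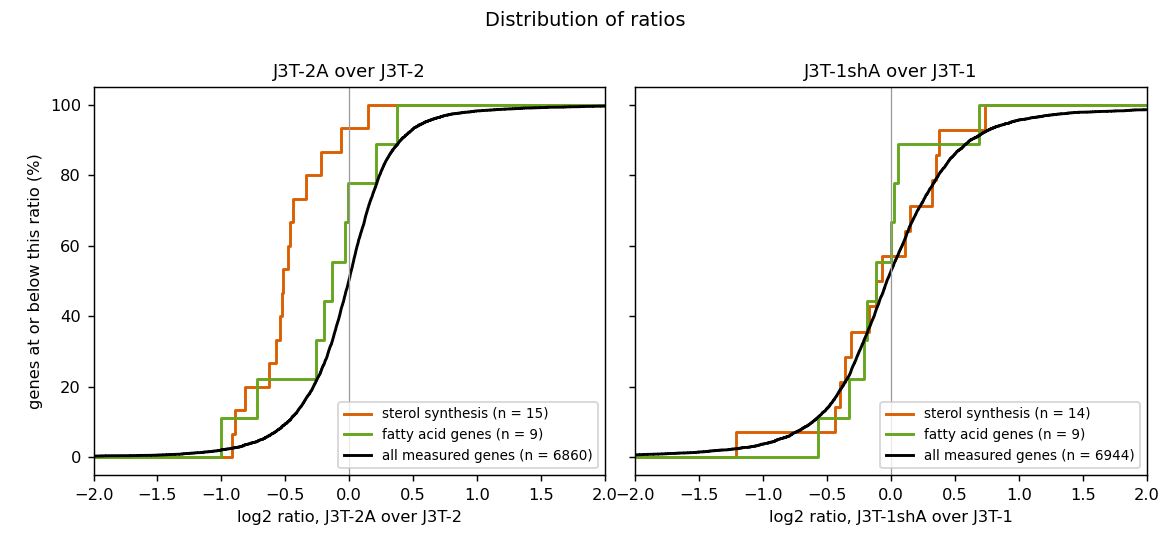
Cumulative share of genes (y axis, percent) at or below each log2 ratio (x axis), in 1 panel each for J3T-2A over J3T-2 and J3T-1shA over J3T-1, with sterol synthesis enzymes in orange, fatty acid genes in green and all measured genes in black. The orange curve lies left of the black one in the first panel (median -0.52 against 0.00) and runs beside it in the second (-0.09 against -0.03).

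Between the parental lines few members passed either fold. For J3T-1 over J3T-2, 2 of 32 measured members passed 2-fold, INSIG1 higher and NPC2 lower, where 6.99% of all genes did. INSIG1 was the only member over 1.5-fold higher (9.16% of all genes), and HSD17B7 and NPC2 were over 1.5-fold lower (11.2% of all genes). This comparison shares an array with each of the others, so its values are no separate support for them. Sterol synthesis enzymes had a median log2 ratio of -0.21, with 12 of 15 lower in J3T-1 than in J3T-2, against a median of 0.03 and 47.5% below 0 among all 6967 measured genes.

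The 2 ANXA2 comparisons share no array, and 30 members were measured in both. Of these, 13 were lower in both derived lines, where 29.2% of 6563 genes were, and 11 were lower in J3T-2A and higher in J3T-1shA, where 20.1% of genes were. By the brightest probe sets, the 13 members were the enzymes HMGCS1, PMVK, MVD, FDFT1, SQLE, CYP51A1 and EBP, with SREBF2, INSIG1, FASN, FADS1, FADS2 and ACSL4. By the second probe set SQLE, PMVK and FASN were higher in J3T-1shA than in J3T-1 (log2 ratios of 0.22, 0.34 and 0.12). Of 20 members with 2 measured probe sets in that comparison, 14 had the same sign by both. As 11 members lower in J3T-2A were higher in J3T-1shA, the 13 were not read as agreement between the comparisons. Only EBP and INSIG1 were over 1.5-fold lower in both, as were 1.57% of genes, and no member was over 1.5-fold higher in both, as were 1.86% of genes.

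Other genes of lipid metabolism were read from further lists. Of 14 other sterol genes and SREBP targets, 10 had a probe set and the other 4 were not analysed here. Of the 10, 9 were measured in each comparison. None passed 2-fold in J3T-2A over J3T-2 or in J3T-1shA over J3T-1, where 3.79% and 8.06% of all genes did. With 9 genes this is near those shares. Their median log2 ratio was -0.16 for J3T-2A over J3T-2 and 0.13 for J3T-1shA over J3T-1, where 8 of 9 were higher and 52.9% of all genes were below 0. ME1, which supplies NADPH for fatty acid synthesis, had 2753 in J3T-2A and 1838 in J3T-2, and 4445 in J3T-1shA and 4076 in J3T-1, and was 2.22-fold higher in J3T-1 than in J3T-2. Of 8 isoprenoid branch genes, FNTB, a farnesyltransferase subunit, had 260.3 in J3T-1shA and 109.7 in J3T-1, and its second probe set was under 250. All 12 or 13 measured genes of fatty acid oxidation were within 2-fold in all 3 comparisons. Since only 3.79% (J3T-2A over J3T-2), 8.06% (J3T-1shA over J3T-1) and 6.99% (J3T-1 over J3T-2) of all genes passed it, this is no trait of the list. Their medians were -0.03 for J3T-2A over J3T-2 and -0.08 for J3T-1shA over J3T-1.

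Genes of lipoprotein uptake, liver X receptors and efflux (11 listed, 10 with a probe set) were lower in both derived lines where measured. All 6 measured in J3T-2A over J3T-2 were lower (median log2 ratio -0.71), as were all 5 measured in J3T-1shA over J3T-1 (median -0.49), where 50.6% and 52.9% of all measured genes were below 0. MYLIP, a ubiquitin ligase that marks lipoprotein receptors for degradation, had 940.2 in J3T-2A and 1895 in J3T-2, and 586.5 in J3T-1shA and 1224 in J3T-1. By all 3 of its probe sets it was lower in both derived lines, at -1.01, -0.81 and -0.82 (log2) in the first comparison and -1.06, -0.58 and -1.42 in the second. VLDLR, a lipoprotein receptor, stood out by the J3T-2 array alone, at 396.9 in J3T-2A and 873.8 in J3T-2, and 273.5 in J3T-1shA and 313.5 in J3T-1. LRP1, another such receptor, had 353.0 in J3T-2 and was under 250 elsewhere. NR1H2, a liver X receptor, had 873.1 in J3T-2A and 1234 in J3T-2, and 759.7 in J3T-1shA and 1300 in J3T-1, and was named after its values were seen.

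Of 7 measured other elongases and acyl-CoA synthetases, 0 passed 2-fold in J3T-2A over J3T-2. In J3T-1shA over J3T-1 it was 1 (ACSL5), and in J3T-1 over J3T-2 it was 1 (ACSL1). Of the lipid droplet and fatty acid binding genes, 1 of 5 (PNPLA2), 1 of 4 (FABP5) and 2 of 5 (PNPLA2 and FABP5) did, in the same order. The shares of all measured genes were 3.79%, 8.06% and 6.99%, and lists this short allow no reading of a share. FABP5, a fatty acid carrier, had 812.4 in J3T-2A and 680.2 in J3T-2, and 320.3 in J3T-1shA and 1406 in J3T-1, a log2 ratio of -2.13 in the second comparison. ACSL5, a mitochondrial and reticular acyl-CoA synthetase, had 4199 in J3T-2A and 5319 in J3T-2, and 1616 in J3T-1shA and 3935 in J3T-1. All 5 ACSL5 probe sets above the limit were lower in J3T-1shA, by log2 ratios of -0.68 to -1.28. ACSL1, a relative, had 1879 in J3T-2A and 1017 in J3T-2, and 1992 in J3T-1shA and 2112 in J3T-1, so that only J3T-2 was low. PNPLA2, a triglyceride lipase, was 5.08-fold higher in J3T-2A than in J3T-2 by its brightest probe set (635.7 and 125.1) and had a log2 ratio of -0.44 by the next (223.9 and 303.9), so its direction was not settled.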

How the data were processed

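Total RNA of 4 canine lines was hybridized to the Affymetrix GeneChip Canine Genome 2.0 array, 1 array per line. The authors computed signal intensities with MAS 5.0 at default settings and brought all arrays to a common trimmed mean. The methods state a target of 100, and the deposited values are about 5 times that scale and were used as given. The array annotation gave 29254 of 42924 probe sets a single gene symbol, 439 several and 13231 were not listed. Positions are left out because no build is named, and no sequence table was used here. The symbols of all 35 members matched RefSeq by Entrez identifier. The brightest probe set of 14 of them carries the suffix s_at, which marks probes shared between transcripts.

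Ratios of 2 arrays were taken with no further normalization, floor or pseudocount, in Python 3.11.15 with numpy 2.4.6 and pandas 2.3.3. The 2-fold count was tested on simulated data with larger planted changes in bright genes. That simulation did not cover the 1.5-fold counts or genes near the limit. The fold of 2 is the one used in the study, and 1.5 was added. The members, lists and limits were chosen with earlier results of these data known. Named were all members with a probe set, and genes of the further lists over 2-fold in any comparison. Alternatives were the second brightest probe set, the median of all probe sets, a limit of 500 or none, a pseudocount of 80 and quantile normalization. Promoter motifs were planned and were not analysed here.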

Additional observations from a re-analysis of the deposited data

Results flagged for a closer look

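EBP was lower on the arrays of both derived lines, which the study describes as overexpressing ANXA2 (J3T-2A) and as having it knocked down (J3T-1shA). The ANXA2 signal itself did not check these descriptions. The log2 ratios of EBP were -0.92 for J3T-2A over J3T-2 and -1.22 for J3T-1shA over J3T-1. By the described ANXA2 state the 2 comparisons thus ran in opposite directions. INSIG1 behaved likewise, with -0.69 for J3T-2A over J3T-2 and -1.26 for J3T-1shA over J3T-1. The difference between the comparisons was not tested, since each line has 1 array.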

How the results depend on the processing

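The median log2 ratio of sterol synthesis enzymes for J3T-2A over J3T-2 ran from -0.58 to -0.45 over the 6 alternatives, and 6 to 10 members were over 1.5-fold lower, against 7. The count of members over 2-fold in J3T-2A over J3T-2, which was 1, became 2 with the second probe set, with the median of probe sets and with no limit on the signal, and 0 with the pseudocount and after quantile normalization. ACSL4 lies just past the threshold in the deposited values, and the cause of these changes was not tested. For J3T-1shA over J3T-1 the count over 2-fold was 1 with the second probe set, against 3. INSIG1 was then at -0.61. The median of sterol synthesis enzymes for J3T-1shA over J3T-1 ran from -0.12 to 0.08, so its sign is not settled, and that of the transport genes for J3T-2A over J3T-2 ran from -0.01 to 0.22. For J3T-1 over J3T-2 the count over 2-fold ran from 1 to 2. No paired analysis was possible because each line has 1 array and the labels give no replicate numbers, and no array could be left out of a comparison of 2. Dim members (MVK, LSS, ABCA1) allow no reading at this signal.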
